A study of Mus musculus with 12 samples.

Results

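The Rab GTPases were followed in splenic regulatory T cells (Treg) and conventional T cells (Tconv) of 2 mouse strains. Members were the genes whose symbol in the array's annotation is Rab with a number and at most a letter and a digit after it, which gave 59 of the 18193 genes named alone by a probe set. The 59 members had 132 probe sets: 21 members had 1 and 38 had several, up to 7. The probe set with the highest mean log2 intensity over all arrays stands for the gene, unless another is named. The 4 groups held 3 Affymetrix arrays each: NOD Treg, NOD Tconv, B6g7 Treg and B6g7 Tconv. NOD is a strain that develops autoimmune diabetes, and B6g7 stands for B6.H2g7, B6 mice congenic for the H2g7 MHC haplotype that NOD carries. RNA of 3 mice, each 6 weeks old, was pooled for each array and no treatment is named, so no value belongs to 1 animal. Treg were CD4+CD25+ and Tconv CD4+CD25-, enriched on magnetic columns and then put through 2 sorts that left out cells bearing CD8a, CD11b, CD69 or B220.

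Rab proteins are small GTPases that mark the membranes of the cell. An exchange factor loads a Rab with GTP, the active Rab then recruits effectors that move, tether or dock vesicles, and a GTPase activating protein (GAP) of the TBC family turns it off. Lipid tails added by the Rab geranylgeranyl transferase hold Rabs on membranes, and GDI proteins shuttle them between membranes. In T cells this traffic carries the T cell receptor and CTLA-4 to and from the surface and releases cytokines and granules.

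The sort labels were checked with Foxp3, the transcription factor that defines Treg. Its log2 intensity was 11.05 ± 0.33 in NOD Treg, 5.91 ± 0.33 in NOD Tconv, 11 ± 0.27 in B6g7 Treg and 5.68 ± 0.14 in B6g7 Tconv (SD, n = 3 each). Il2ra, which encodes CD25, was at 10.81 ± 0.11, 5.74 ± 0.04, 11.02 ± 0.08 and 5.69 ± 0.17 in the same order of groups. With Ikzf2 and Ctla4 the Treg marker list holds 4 genes, all called higher in Treg averaged over both strains. Between strains, 1 of the 4 was called higher in NOD Tconv and 0 were called in Treg. The list's log2 summed intensity ranged from 9.79 to 10.18 in NOD Tconv, against 9.13 to 9.63 in B6g7 Tconv. Of 5 measured T cell markers, 1 was called higher and 1 lower in Treg averaged over both strains. Per the labels, 89% to 95% of the sorted NOD Treg and 94% to 96% of the B6g7 Treg were Foxp3+. Array medians ranged from 83.9 to 88.6 in intensity, and precision is limited by how few arrays each group holds. Shortened RNA raises the log2 signal of the actin control at its 3' end over that at its 5' end, and this gap averaged 4.15 ± 0.76 in NOD Treg, 3.67 ± 0.65 in NOD Tconv, 3.83 ± 1.03 in B6g7 Treg and 3.98 ± 0.40 in B6g7 Tconv. Of 38 measured markers of other cell types, Cd79b, Xbp1 and Kit were called higher in Treg averaged over both strains, by 0.79, 0.99 and 0.48 on the log2 scale. The log2 of the summed intensity of the plasma cell list, which holds Xbp1, ranged from 10.73 to 10.90 in NOD Treg, 9.99 to 10.12 in NOD Tconv, 10.54 to 10.77 in B6g7 Treg and 10.01 to 10.27 in B6g7 Tconv. For the B cell list with Cd79b the ranges were 9.64 to 9.77, 9.57 to 9.80, 9.50 to 9.77 and 9.45 to 9.74, and for the mast cell and basophil list with Kit 7.92 to 7.94, 7.68 to 7.95, 7.86 to 8.05 and 7.80 to 8.10, in the same order of groups. Of the 4 measured genes of the plasma cell list only Xbp1 was called, and the list's median averaged difference was 0.04. RMA values never reach 0, so a marker at 0 cannot be seen. Between strains limma called 0 of the 38 markers, with 2 in Treg and 3 in Tconv at an unadjusted p under 0.05. The part of these differences in the results below was not tested. In bulk RNA, fewer cells of a type and less RNA per cell cannot be told apart.

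In all, 3 of the 59 members passed the test in at least 1 of the 6 comparisons made here: Rab6b, Rab8b and Rab3d. Single comparisons called from 0.11% to 7.5% of all 18193 genes, and the share called in at least 1 is not given here. Rab6b is a form of the Golgi GTPase Rab6 best known from neurons, Rab8b delivers vesicles to the plasma membrane, and Rab3d is known from the secretory granules of exocrine and mast cells. Their promoters, from 250 bases before to 50 after the gene's start, are shown because these genes carry the differences below. They come from a table of promoters, build GRCm38.p6, where 48 of the 59 members have an entry. All 3 lie on chromosome 9, as do 6 of those 48 members. They are written 5' to 3' on the gene's strand, and capitals mark the GC box, GGGCGG on either strand.
Rab6b, chr9:103111824-103112123, plus strand: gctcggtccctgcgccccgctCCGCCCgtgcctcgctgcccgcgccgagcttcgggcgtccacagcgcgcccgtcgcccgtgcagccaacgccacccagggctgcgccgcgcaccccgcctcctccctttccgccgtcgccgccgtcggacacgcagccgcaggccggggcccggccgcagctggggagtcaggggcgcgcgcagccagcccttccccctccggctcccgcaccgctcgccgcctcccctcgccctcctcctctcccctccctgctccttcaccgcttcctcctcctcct
Rab8b, chr9:66919656-66919955, minus strand: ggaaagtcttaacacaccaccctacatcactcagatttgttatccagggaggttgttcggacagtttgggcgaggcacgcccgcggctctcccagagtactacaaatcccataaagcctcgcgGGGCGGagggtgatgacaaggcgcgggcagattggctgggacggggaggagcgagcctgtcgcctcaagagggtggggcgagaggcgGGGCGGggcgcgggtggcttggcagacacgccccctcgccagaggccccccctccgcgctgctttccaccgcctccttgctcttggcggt
Rab3d, chr9:21918134-21918433, minus strand: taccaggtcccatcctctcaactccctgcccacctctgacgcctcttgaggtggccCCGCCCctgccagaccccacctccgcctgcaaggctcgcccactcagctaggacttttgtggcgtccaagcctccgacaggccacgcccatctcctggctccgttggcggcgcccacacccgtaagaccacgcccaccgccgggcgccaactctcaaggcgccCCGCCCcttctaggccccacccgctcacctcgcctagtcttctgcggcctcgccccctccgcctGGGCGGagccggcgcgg
The GC content was 78.7% for Rab6b, 65.3% for Rab8b and 71.0% for Rab3d. The GC box stood 1 time in the Rab6b window, 2 times in that of Rab8b and 3 times in that of Rab3d. It occurred in 41 of 60 promoter entries of members (68.3%) and in 35.7% of the 32851 promoters in the table. The forkhead core TGTTTAC, the cyclic AMP response element TGACGTCA and the TATA box TATAAA, on either strand, were in none of the 3 windows. Those letters occurred in 3.65%, 1.79% and 13.6% of all promoters.

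Rab6b was far lower in NOD than in B6g7, in both cell types. Its log2 intensity in Treg was 5.19, 5.18 and 5.40 in NOD, against 10.21, 10.59 and 10.17 in B6g7. In Tconv it was 5.24, 5.30 and 5.22 in NOD, against 9.72, 9.87 and 9.73 in B6g7. The 6 NOD arrays thus lay together near the low end of the intensities and all 6 B6g7 arrays stood well above them. The log2 difference, NOD minus B6g7, was -5.07 ± 0.12 (SE) in Treg, with an adjusted p of 3.24e-10, and -4.52 ± 0.12 in Tconv, with an adjusted p of 1.29e-09 (limma, Benjamini-Hochberg over all 45037 probe sets tested). Both NOD means, 5.26 ± 0.12 and 5.25 ± 0.05, fell under 5.28, the 25th percentile of probe set means. Such a level is called dim here, and the size of a difference against it is uncertain, so no fold is given.

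The other 3 probe sets of Rab6b were also lower in NOD Treg, by smaller amounts, and 1 of them was lower in NOD Tconv. Probe set 1460617_s_at read 4.86, 5.44 and 4.45 in NOD Treg, against 8.22, 8.69 and 8.79 in B6g7 Treg. In Tconv it read 4.35, 4.49 and 4.30 in NOD, against 7.69, 7.76 and 7.74 in B6g7. Its differences were -3.65 ± 0.21 in Treg (adjusted p = 3.87e-07) and -3.35 ± 0.21 in Tconv (adjusted p = 7.79e-07), so a second set of probes passed the test in both cell types. It too was dim in both NOD groups, so these sizes are also uncertain. Probe set 1437107_at read 5.36, 5.55 and 5.43 in NOD Treg, against 6.12, 6.39 and 6.22 in B6g7 Treg, a difference of -0.80 ± 0.10 (adjusted p = 0.000529). Probe set 1455924_at read 5.55, 5.52 and 5.64 in NOD Treg, against 6.12, 6.01 and 6.17 in B6g7 Treg, a difference of -0.53 ± 0.10 (adjusted p = 0.0076). In Tconv neither of these passed the test, with -0.16 ± 0.10 (adjusted p = 0.69) and -0.15 ± 0.10 (adjusted p = 0.707). Whether base differences between the strains under the probes contribute was not tested. Rab6a is the widely expressed form of the Golgi Rab6 and the nearest relative of Rab6b. It did not pass the test between strains, with 0.07 in Treg and 0.39 ± 0.15 in Tconv (adjusted p = 0.309). In Tconv it read 10.56, 10.40 and 10.41 in NOD, against 10.27, 10.28 and 9.66 in B6g7, with no overlap.

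**Figure D1:**
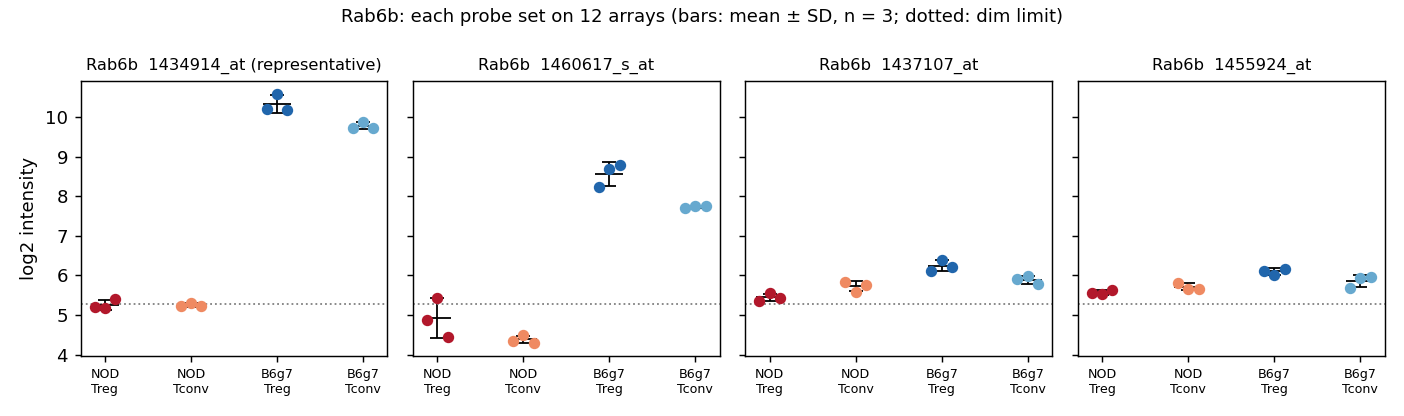
Log2 intensity (vertical axis) of the 4 Rab6b probe sets on each of 12 arrays in 4 groups (horizontal axis). Points are arrays, bars are the mean ± SD (n = 3) and the dotted line is the dim limit of 5.28. In probe set 1434914_at the 6 NOD arrays lie between 5.18 and 5.40 and the 6 B6g7 arrays between 9.72 and 10.59.

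Within B6g7, Rab6b was higher in Treg than in Tconv, with no overlap between the 3 arrays of each group. The log2 difference was 0.55 ± 0.12, or 1.46-fold (adjusted p = 0.0189). Probe set 1460617_s_at gave 0.84 ± 0.21 (adjusted p = 0.0476). The call on the representative probe set was lost without replicate 1 of B6g7 Tconv (adjusted p = 0.0801), without replicate 3 of B6g7 Tconv (adjusted p = 0.065) and without replicate 2 of B6g7 Treg (adjusted p = 0.0624). That call was also lost with only the B6g7 arrays in the fit (adjusted p = 0.113). In NOD the difference was 0.00 ± 0.12 (adjusted p = 0.998), between 2 dim levels. The strain difference in the Treg to Tconv change was -0.54 ± 0.16, with a 95% interval from -0.90 to -0.19 and an adjusted p of 0.883, so it did not pass.

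Rab8b was higher in Treg than in Tconv on average over both strains. In NOD its log2 intensity was 12.55, 12.55 and 12.50 in Treg, against 12.38, 12.14 and 12.18 in Tconv. In B6g7 it was 12.51, 12.53 and 12.71 in Treg, against 12.08, 12.13 and 11.87 in Tconv. No Treg array overlapped a Tconv array of its strain. Averaged over both strains the log2 difference, Treg minus Tconv, was 0.43 ± 0.07, or 1.35-fold (adjusted p = 0.00189). It was 0.56 ± 0.10 in B6g7, or 1.47-fold (adjusted p = 0.00627), and 0.30 ± 0.10 in NOD, which missed the threshold (adjusted p = 0.189). The strain difference in this change was -0.26 ± 0.14 (adjusted p = 0.962). The other Rab8b probe set, 1426800_at, did not show the difference: it gave -0.17 ± 0.08 averaged over both strains (adjusted p = 0.406). With the mean of both probe sets the averaged difference was 0.13 (adjusted p = 0.139) and that in B6g7 0.17 (adjusted p = 0.251), so both calls were lost. The B6g7 call was also lost with only the B6g7 arrays in the fit (adjusted p = 0.0517).

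Rab3d was lower in Treg than in Tconv on average over both strains. In NOD its log2 intensity was 7.40, 7.37 and 7.46 in Treg, against 7.73, 7.53 and 7.54 in Tconv. In B6g7 it was 6.95, 7.13 and 6.65 in Treg, against 7.42, 7.46 and 7.53 in Tconv. The arrays of the 2 cell types did not overlap in either strain, and B6g7 Treg was the lowest group. Averaged over both strains the log2 difference was -0.38 ± 0.08, which is 1.30-fold lower in Treg (adjusted p = 0.0127). In B6g7 it was -0.56 ± 0.11, or 1.48-fold lower (adjusted p = 0.0147), and in NOD -0.19 ± 0.11 (adjusted p = 0.664). The B6g7 call was lost without replicate 2 or without replicate 3 of B6g7 Tconv (adjusted p = 0.0563 and 0.0558). It was also lost with only the B6g7 arrays in the fit (adjusted p = 0.0997). Without all arrays numbered replicate 1 the averaged difference was about as large, -0.36, and no longer passed with fewer arrays (adjusted p = 0.0982). Probe set 1418890_a_at gave -0.41 ± 0.06 averaged (adjusted p = 0.00103) and was also called in each strain, with -0.39 in NOD (adjusted p = 0.0291) and -0.42 in B6g7 (adjusted p = 0.0155). The remaining 2 Rab3d probe sets gave -0.49 (adjusted p = 0.0704) and -0.23 (adjusted p = 0.496).

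Between strains, Rab3d was higher in NOD Treg than in B6g7 Treg by 0.50 ± 0.11, or 1.41-fold (adjusted p = 0.0305). In Tconv its difference was 0.13 (adjusted p = 0.8), and the strain difference in the Treg to Tconv change was 0.37 ± 0.16 (adjusted p = 0.962). The call in Treg did not hold in 6 of 12 fits that left out 1 array each. Without replicate 1, 2 or 3 of NOD Treg the adjusted p was 0.0827, 0.076 or 0.129. Without replicate 1 or 3 of B6g7 Treg it was 0.0651 or 0.0977, and without replicate 2 of B6g7 Tconv it was 0.0503. Of the other probe sets, 1 was called, in Tconv. Probe set 1418891_a_at read 8.46, 8.09 and 7.66 in NOD Tconv, against 6.96, 7.14 and 6.83 in B6g7 Tconv, a difference of 1.09 ± 0.20 (adjusted p = 0.00852). In Treg it read 7.56, 7.28 and 7.06 in NOD, against 6.98, 6.43 and 6.85 in B6g7, a difference of 0.55 (adjusted p = 0.283). Probe set 1418890_a_at gave 0.20 in Treg (adjusted p = 0.435) and 0.16 in Tconv (adjusted p = 0.603), and probe set 1449260_at 0.19 (adjusted p = 0.896) and 0.06 (adjusted p = 0.96). All 4 probe sets were thus higher in NOD by mean, with calls on different probe sets in the 2 cell types.

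**Figure D2:**
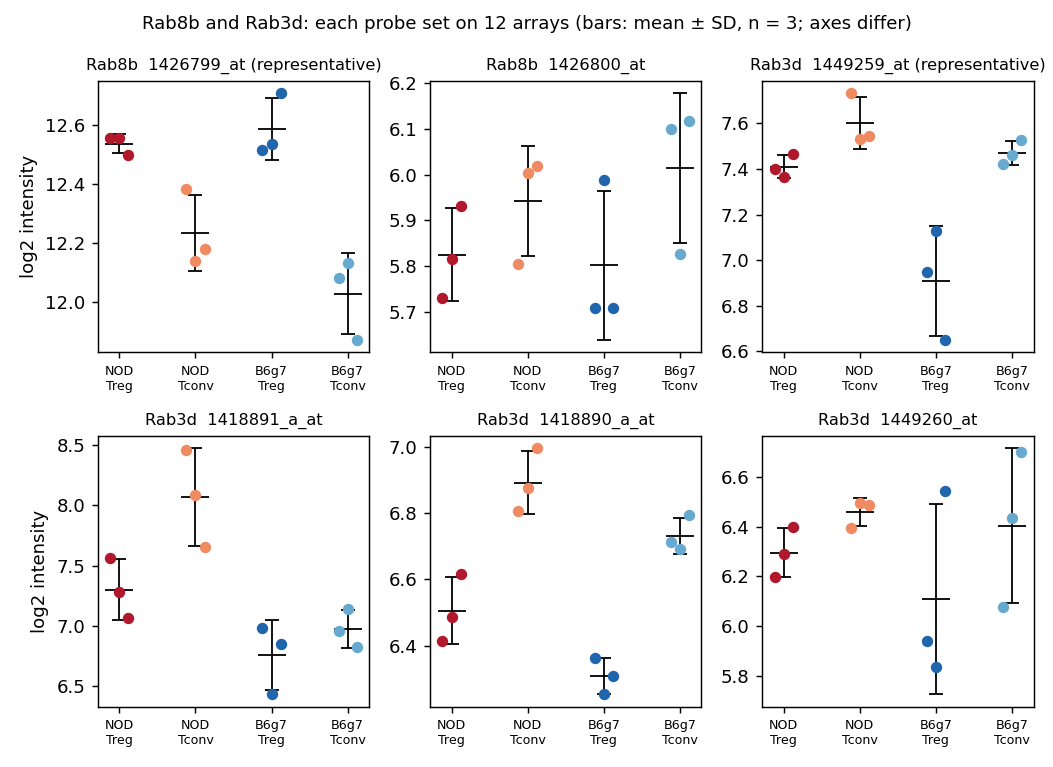
Log2 intensity (vertical axes, which differ between panels and do not start at 0) of the 2 Rab8b and 4 Rab3d probe sets on each array of the 4 groups (horizontal axis). Points are arrays and bars the mean ± SD (n = 3). On the representative probe sets, Treg arrays lie above Tconv arrays for Rab8b and below them for Rab3d in each strain.

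Averaged over both strains, 1 member was called higher in Treg (Rab8b) and 1 lower (Rab3d), which is 3.39% of the 59, beside 7.5% of all 18193 genes (4.46% higher and 3.03% lower). The median difference was -0.02 over the members and -0.01 over all genes. Of the 59 members, 24 had a positive and 35 a negative difference, between -0.41 and 0.43. The 95% interval of the difference lay within ±0.5 for 50 members and within ±1 for all 59, so changes of more than 1 on the log2 scale lay outside every member's interval. Rab8b and Rab3d were also the only members whose Treg and Tconv arrays did not overlap, in the same direction, in both strains. Over all genes, 4.15% were higher in this way and 2.8% lower.

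The members that deliver cargo to the plasma membrane or recycle it from endosomes numbered 12, with 1 called, Rab8b. Rab8a, its close relative, was at -0.17 averaged (adjusted p = 0.478). Rab4a, which drives fast recycling from early endosomes, was at -0.18 averaged (adjusted p = 0.252). In B6g7 it read 6.73, 6.86 and 6.59 in Treg, against 6.98, 7.08 and 7.22 in Tconv, a difference of -0.37 ± 0.10 (adjusted p = 0.0921). In NOD the arrays of the 2 cell types overlapped, at 6.77, 6.90 and 7.02 in Treg, against 6.84, 6.98 and 6.84 in Tconv. Rab25, an epithelial relative of Rab11, was at 0.12 (adjusted p = 0.659).

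The 9 members of regulated secretion included Rab3d and no other called gene. Rab37, known from mast cell granules, read 11.15, 10.73 and 10.83 in NOD Treg, against 10.99, 10.58 and 10.61 in NOD Tconv. In B6g7 it read 11.38, 11.23 and 11.21 in Treg, against 10.93, 11.03 and 10.83 in Tconv. In same-numbered NOD arrays, whose deviations correlated, Treg was above Tconv by 0.17, 0.16 and 0.22. In B6g7, where such deviations did not correlate for every number, no arrays of the 2 cell types overlapped. The averaged difference of Rab37, 0.26 ± 0.09, missed the threshold (adjusted p = 0.171) and passed with the replicate number as a block (adjusted p = 0.0464). That block takes the replicate effect as common to all 4 groups, B6g7 included, so it was not a paired fit of NOD alone. Rab3a and Rab3c, relatives of Rab3d on synaptic vesicles, were at -0.23 (adjusted p = 0.595) and -0.10 (adjusted p = 0.648). Rab27a, which docks the lytic granules of cytotoxic T cells, was at 0.02 (adjusted p = 0.99), and Rab27b at -0.07 (adjusted p = 0.837).

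None of the 8 early endosome members was called, and their averaged differences ran from -0.41 to 0.22. Rab20 had the lowest, -0.41 ± 0.13 (adjusted p = 0.115), but was dim in all 4 groups. It read 4.57, 4.76 and 4.06 in NOD Treg, against 5.24, 4.67 and 5.16 in NOD Tconv, and it was called without replicate 2 of NOD Tconv (adjusted p = 0.0444). Rab5c, one of the 3 forms of the early endosome GTPase Rab5, was at 0.22 (adjusted p = 0.62), and the epithelial Rab17 at -0.12 (adjusted p = 0.657). The 8 members of late endosomes, lysosomes and related organelles were not called either, between -0.18 and 0.04. Rab32, which was dim in all groups, was at -0.18 (adjusted p = 0.714).

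The secretory pathway held 14 members, with none called on average and differences from -0.20 to 0.28. Rab6b had the highest, 0.28 ± 0.08 (adjusted p = 0.0792), and was called with the replicate block common to all 4 groups (adjusted p = 0.0447). That value averages 0.55 in B6g7 with 0.00 in NOD, where both groups were dim and a change could hardly be seen. Rab2a and Rab2b, which act between the endoplasmic reticulum and the Golgi, lay on opposite sides of 0 without passing the test, at -0.20 (adjusted p = 0.702) and 0.22 (adjusted p = 0.52). Rab33a and Rab33b stood at -0.12 (adjusted p = 0.541) and 0.20 (adjusted p = 0.646), and Rab33a was dim in all groups. Rab19 was at 0.16 (adjusted p = 0.241), Rab30 at -0.09 (adjusted p = 0.632, dim in all groups) and Rab43 at 0.14 (adjusted p = 0.65). The 8 members of less settled role, among them the ciliary regulator Rab23, were not called, between -0.09 and 0.11.

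Taken by strain, 3 members were called in B6g7 (5.08%, beside 4.55% of all genes, 2.84% higher and 1.7% lower): Rab8b and Rab6b higher and Rab3d lower in Treg. In NOD limma called 0 of 59 members, beside 4.38% of all genes, and 3 had an unadjusted p under 0.05. Those counts do not show that the strains differ. The lowest adjusted p among members in NOD was 0.189, and the 95% interval lay within ±1 for 58 of 59 members. In NOD, Treg and Tconv arrays did not overlap for 1 member that was higher and 8 that were lower in Treg, beside 8.28% and 11.1% of all genes. In B6g7 they did not overlap for 5 that were higher and 3 that were lower, beside 9.91% and 6.73%.

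**Figure D3:**
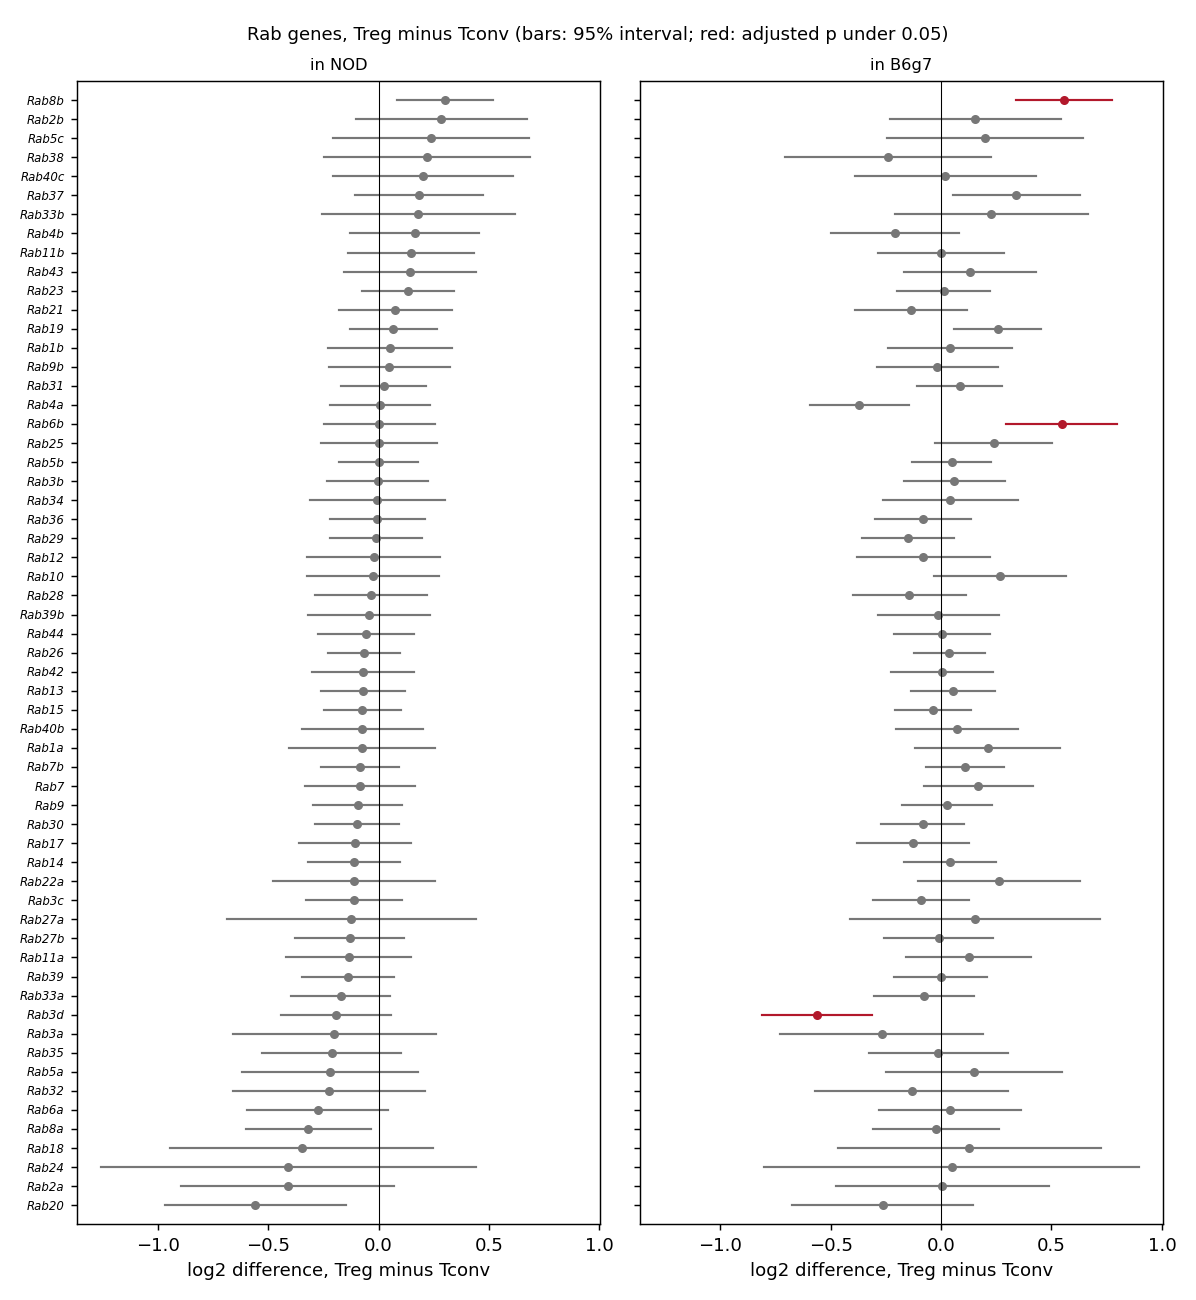
Log2 difference, Treg minus Tconv (horizontal axes), of the 59 Rab genes (one per line, vertical axis) in NOD and in B6g7, ordered by the NOD value. Points are fitted differences, bars 95% intervals, and red marks an adjusted p under 0.05: none in NOD, and Rab8b, Rab6b and Rab3d in B6g7.

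Between strains, 2 members were called in Treg (3.39%, beside 3.33% of all genes, 1.84% higher and 1.49% lower): Rab3d higher and Rab6b lower in NOD. In Tconv 1 member was called (1.69%, beside 3.05% of all genes, 1.6% higher and 1.45% lower), Rab6b, which was lower in NOD. The uncalled members lay between -0.37 and 0.32 in Treg and between -0.27 and 0.46 in Tconv. Rab31, which acts between the trans-Golgi and endosomes, had the smallest p of these in both cell types. It read 7.35, 7.23 and 7.47 in NOD Treg, against 7.70, 7.61 and 7.68 in B6g7 Treg, and 7.28, 7.34 and 7.36 in NOD Tconv, against 7.53, 7.52 and 7.69 in B6g7 Tconv. The arrays of the strains did not overlap in either cell type. Its differences, -0.31 ± 0.09 (adjusted p = 0.101) and -0.25 ± 0.09 (adjusted p = 0.248), did not pass. Groups of the 2 strains did not overlap in Treg for 2 members that were higher and 8 that were lower in NOD, beside 7.22% and 6.74% of all genes. In Tconv they did not overlap for 4 that were higher and 4 that were lower in NOD, beside 11.5% and 6.19%.

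Further members of smallest p between strains also missed the threshold. In Treg, Rab37 was at -0.37 ± 0.13 (adjusted p = 0.263), Rab4b at 0.32 (adjusted p = 0.393) and Rab8a at -0.31 (adjusted p = 0.409). In Tconv, Rab8b was at 0.21 (adjusted p = 0.521), Rab4a at -0.21 (adjusted p = 0.545) and Rab11a, the main GTPase of recycling endosomes, at 0.22 (adjusted p = 0.642).

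**Figure D4:**
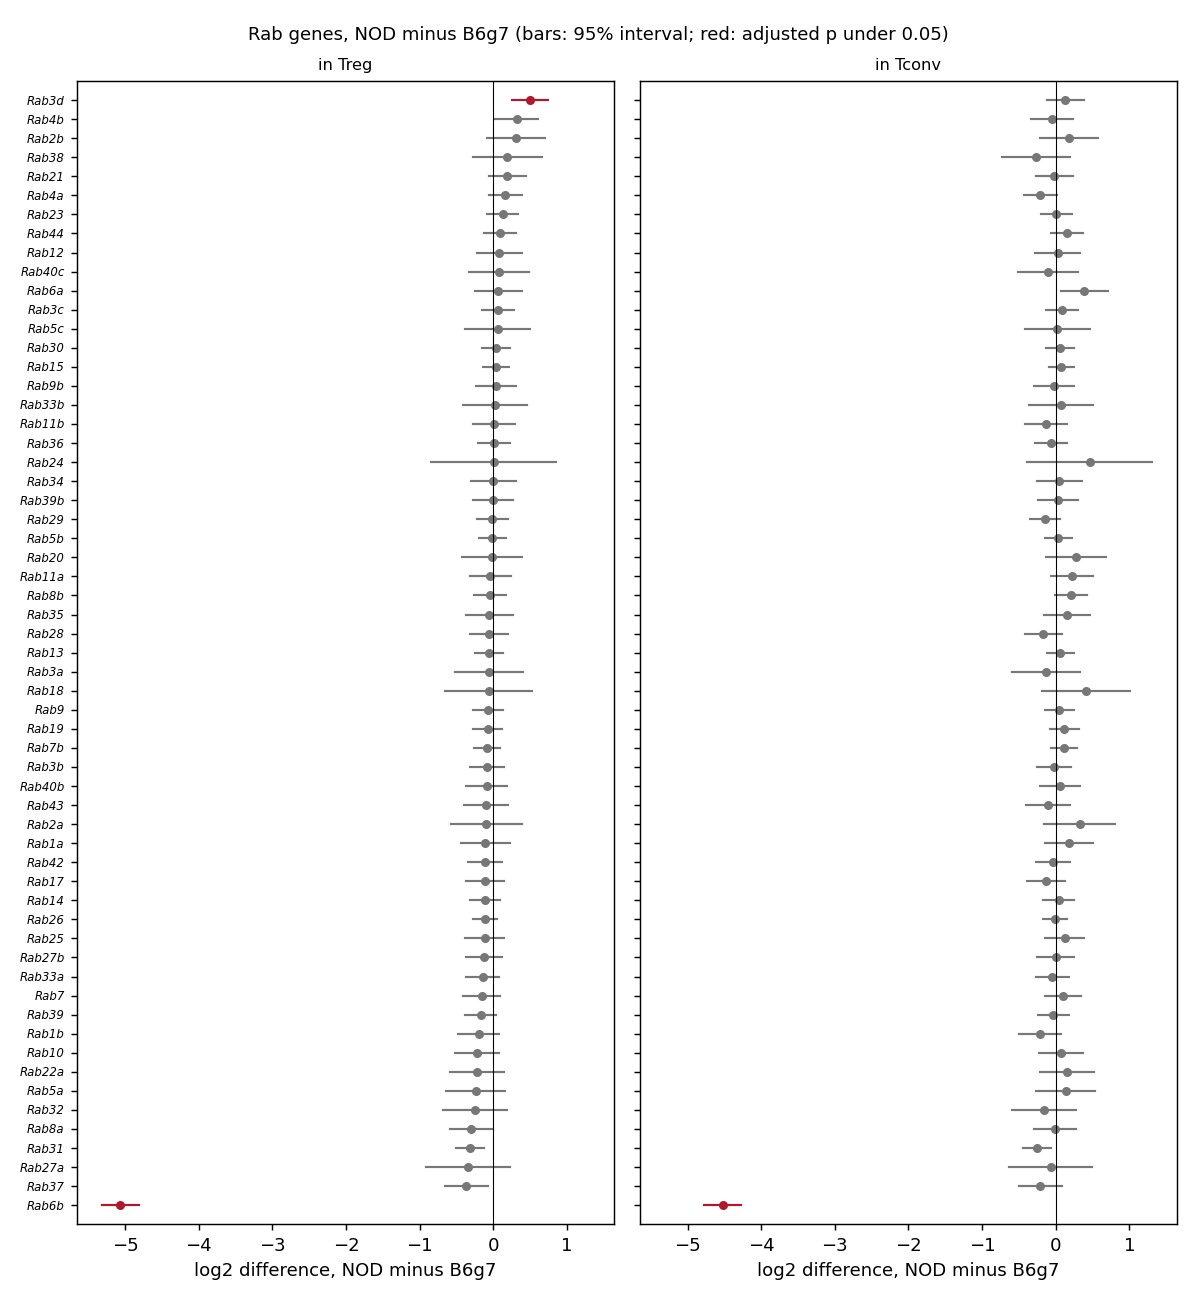
Log2 difference, NOD minus B6g7 (horizontal axes, same scale), of the 59 Rab genes (one per line, vertical axis) in Treg and in Tconv, ordered by the Treg value. Points are fitted differences, bars 95% intervals, and red marks an adjusted p under 0.05. Rab6b stands at -5.07 and -4.52, and every other member between -0.37 and 0.50.

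The series asked how the ratio of Treg to Tconv compares between the strains. For that strain difference limma called 0 of 59 members, beside 0.11% of all genes (20 of 18193), and 3 members had an unadjusted p under 0.05. After Rab6b, described above, the smallest p belonged to Rab4a (0.37), Rab3d (0.37), Rab4b (0.37), Rab8b (-0.26) and Rab7b (-0.19), each with an adjusted p of 0.962. The precision here was lower: the 95% interval lay within ±0.5 for 28 members and within ±1 for 54.

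Genes of proteins that act on Rabs were examined beside the Rabs. Of 115 measured genes on 4 lists, 11 were called higher and 6 lower in Treg averaged over both strains, 14.8%, beside the 7.5% of all genes and the 3.39% of Rab genes. The difference between these shares was not tested, and the lists were written from textbook knowledge with earlier results of these data known. Of the 17 called genes, 11 had other probe sets. At least 1 of these was called in the same direction for 2 genes, Dennd2d and Evi5, and none was called for the remaining 9. For those 9 genes the other probe sets ran from -0.26 (Rabif) to 0.72 (Tbc1d4). Those of Sbf2, Tbc1d14, Tbc1d16 and Tbc1d30 lay between -0.09 and 0.08.

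Of 32 exchange factors, 3 were higher and 3 lower. Dennd5a, an exchange factor that binds Rab6, read 10.74, 10.70 and 10.88 in NOD Treg, against 9.54, 9.58 and 9.88 in NOD Tconv. In B6g7 it read 10.57, 10.63 and 10.92 in Treg, against 9.19, 9.27 and 8.94 in Tconv. Every Treg array lay above every Tconv array, and the averaged difference was 1.34 (adjusted p = 8.18e-07). Dennd4a and Dennd4c, exchange factors of Rab10, moved apart, at 0.51 (adjusted p = 0.00193) and -0.85 (adjusted p = 0.000609). Dennd2d was lower, at -0.61 (adjusted p = 0.00515). The other called members, Sbf2 and Dennd2c, were at 0.39 (adjusted p = 0.0283) and -0.33 (adjusted p = 0.0431).

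Of 36 GAPs, 5 were higher and 1 lower. Evi5, a TBC protein that binds Rab11, was at 0.73 (adjusted p = 0.000184), with 6.71, 6.66 and 6.72 in NOD Treg, against 6.42, 5.89 and 5.99 in NOD Tconv. In B6g7 it read 7.01, 7.05 and 7.06 in Treg, against 6.10, 6.09 and 6.36 in Tconv, so the cell types did not overlap in either strain. Tbc1d30, a GAP of Rab8, was at 1.02 (adjusted p = 0.00466), while its other probe set was at 0.07 and not called. Tbc1d14, which acts at recycling endosomes in autophagy, was at 0.41 (adjusted p = 0.0021), and Tbc1d2b was at 0.42 (adjusted p = 0.00969). Tbc1d4, known from insulin-driven delivery of glucose transporters, was at 0.32 (adjusted p = 0.0264). Tbc1d16, a GAP of Rab4, was the member called lower, at -0.64 (adjusted p = 0.000239).

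Of 40 effectors, 3 were higher and 1 lower. Eea1, the tether through which Rab5 fuses early endosomes, was at 0.82 (adjusted p = 0.00028). None of the 3 Rab5 genes was called. Its log2 intensity was 6.40, 6.24 and 6.49 in NOD Treg, against 5.47, 5.73 and 5.47 in NOD Tconv, and 6.51, 5.90 and 6.06 in B6g7 Treg, against 5.26, 5.21 and 5.51 in B6g7 Tconv. The arrays of the cell types did not overlap in either strain. Sytl2, an effector of Rab27 in secretion, was at 0.98 (adjusted p = 0.000715). The Rab11 effectors Rab11fip2 and Rab11fip4 moved apart, at 0.70 (adjusted p = 0.00856) and -0.42 (adjusted p = 0.0015). Of 7 genes of lipidation and membrane cycling, only Rabif, which stabilises Rabs without a nucleotide, was called, at -0.47 (adjusted p = 0.0226). The 2 transferase subunits did not pass, with Rabggta at -0.17 (adjusted p = 0.272) and Rabggtb at -0.43 (adjusted p = 0.503), nor did Rabac1 at -0.15 (adjusted p = 0.543).

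**Figure D5:**
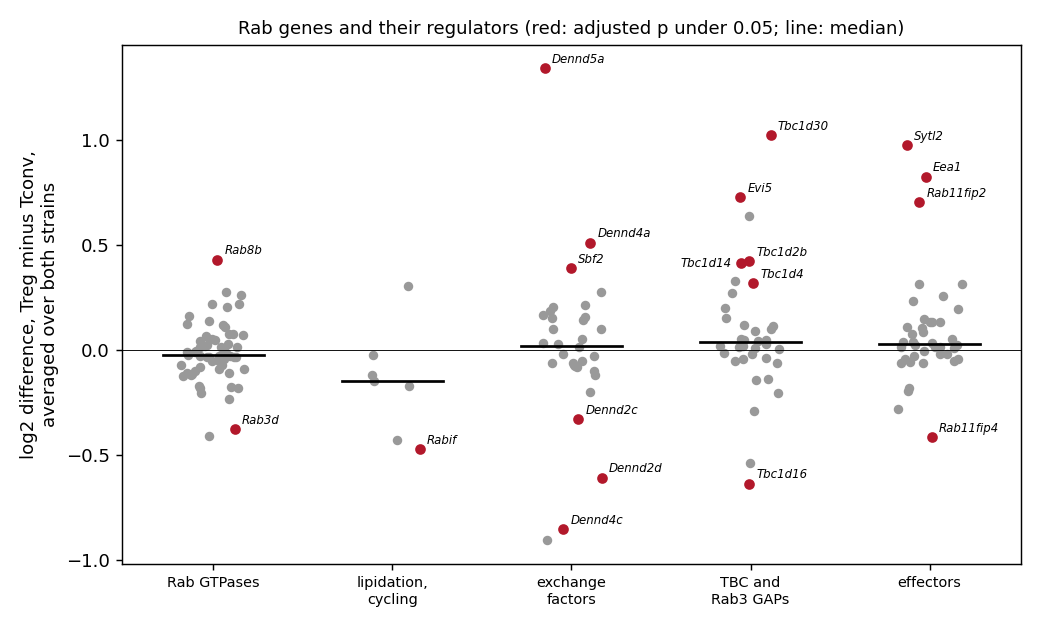
Log2 difference, Treg minus Tconv averaged over both strains (vertical axis), of the 59 Rab genes and the measured genes of the 4 lists (horizontal axis). Each point is a gene, lines are medians, and red named points have an adjusted p under 0.05. The Rab genes lie between -0.41 and 0.43, while Dennd5a stands at 1.34 and Tbc1d30 at 1.02.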

How the data were processed

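The authors deposited RMA-normalized values, an intensity for each probe set on each array (series text and submitters' processing notes). The software version is not given in the sources used here. RNA was amplified in 2 rounds before labelling, per the labels' protocols. Values run from 5.78 to 27207, which shows a linear scale, and log2 was taken with no further normalization. Of 45101 probe sets, 64 controls were left out.

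The fit was limma 3.58.1 in R 4.3.3 (1 mean per group, eBayes defaults, all 12 arrays), run after a check on simulated data. P-values were adjusted by Benjamini-Hochberg over 45037 probe sets per comparison, and an adjusted p under 0.05 is a call. Exact tests of 3 against 3 arrays cannot go below p = 0.1 and were not run. Replicates are independent pools, per the series text.

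Members and lists were chosen with earlier results of these data known. Named are the called members, the 20 of smallest averaged p, the 6 of smallest p per strain comparison and strain difference, and 4 per regulator list; Rab27a, Rab27b, Rab6a, Rab23 and the further regulators were chosen after values were seen. All IDs are those of the platform annotation, and all 59 member symbols are in the RefSeq gene table.

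Deviations of same-numbered arrays correlated with r of 0.31 to 0.56 in NOD and 0.30 to 0.67 in Treg, over 0.1 for every number. In B6g7 (-0.08 to 0.52) and Tconv (-0.04 to 0.44) this did not hold for every number. Differently numbered arrays correlated at up to 0.22 in NOD and 0.31 in Treg. The value in Treg was above the lowest same-numbered r, so the numbers were not shown to pair arrays there. Alternatives were array weights, variance model, dim filter, quantile normalization, a pseudocount of 16, probe set choice, an actin covariate, a replicate block and left-out arrays.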

Additional observations from a re-analysis of the deposited data

How the results depend on the processing

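Over the named members and all alternatives, 840 values kept their direction and side of the threshold, 9 gained a call, 22 lost one and 1 reversed. Most named results were not called in the main analysis, and only a called one can lose its call. Rab3d's call between strains in Treg was lost in 9 of 22 alternatives. In B6g7 the calls of Rab6b and Rab3d were lost in 5 and 4 of 22. Every other called result was lost in at most 2. The reversed value was Rab3d's strain difference in the Treg to Tconv change, -0.0025 with the mean over its probe sets. Both strain calls of Rab6b held under every alternative run, with differences from -5.22 to -2.51 in Treg and -4.56 to -2.04 in Tconv. Averaged over both strains, 4 members were called with the replicate block (adding Rab37 and Rab6b), 5 with array weights, 4 with the actin covariate and 1 (Rab8b) without the arrays numbered replicate 1, against 2 in the main analysis; leaving out 1 array gave 2 to 3. In NOD, 1 was called after quantile normalization (Rab8b), 1 when any probe set counted and 1 with probe set means (both Rab3d), against 0, and leaving out 1 array gave 0. In B6g7, 0 were called with only its own arrays in the fit and 1 without the arrays numbered replicate 1, against 3; leaving out 1 array gave 1 to 3. Between strains in Treg, 1 (Rab6b) was called with only those arrays, with array weights and without the arrays numbered replicate 1, against 2; leaving out 1 array gave 1 to 2. In Tconv, 3 were called when any probe set counted and 2 with probe set means, against 1. The strain difference gave 0 calls throughout. The replicate block changed no call in NOD or between strains in Treg, where deviations of same-numbered arrays correlated for every number. The shares of all genes called in these alternative fits are not given here, so the counts do not show a change particular to the members. The cause of these changes was not tested. Dim levels limit what Rab6b in NOD and 6 members dim in every group can show.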

Other observations

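The genes around Rab6b were measured in the same arrays. Of the 10 measured genes nearest to it in RefSeq order, 5 on each side, 0 were called between strains by limma in Treg or Tconv. Over all genes, 3.33% were called in Treg and 3.05% in Tconv. At an unadjusted p under 0.05 there was 1 neighbour in Treg and 0 in Tconv, beside 10.9% and 11.1% of all genes. Among so few genes, a count of 0 called does not set the neighbours apart. Their log2 differences, NOD minus B6g7, lay between -0.46 and 0.18. They include Slco2a1, a prostaglandin transporter, and Srprb, a subunit of the signal recognition particle receptor. The neighbours were chosen after the Rab6b values were seen.

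Rab2b had a probe set that its representative did not follow. Probe set 1428115_a_at read 6.97, 6.84 and 6.71 in NOD Tconv, against 6.05, 6.24 and 5.75 in B6g7 Tconv, with no overlap and a difference of 0.83 ± 0.16 (adjusted p = 0.0128). The representative probe set gave 0.18 (adjusted p = 0.828).

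Of the 115 measured regulators of Rabs, limma called 5 between strains in Treg (4.35%, beside 3.33% of all genes) and 4 in Tconv (3.48%, beside 3.05%). These shares are close to those of all genes, and the called genes are given as values. Each value is from the gene's representative probe set, and strain differences of other probe sets of these genes are not given here. Ehbp1, an effector of Rab8 and Rab10, read 7.81, 7.31 and 7.24 in NOD Treg, against 6.54, 6.95 and 6.46 in B6g7 Treg, a difference of 0.80 (adjusted p = 0.0173). In Tconv it read 7.38, 7.28 and 7.56 in NOD, against 6.39, 6.59 and 6.29 in B6g7, a difference of 0.98 (adjusted p = 0.00439), and the strains did not overlap in either cell type. Tbc1d19 was higher in NOD Treg by 1.0 (adjusted p = 0.000409), and its difference in Tconv was 0.51 (adjusted p = 0.052). Tbc1d14 was lower in NOD Treg, at -0.43 (adjusted p = 0.0283). Tbc1d5, a GAP of Rab7, was lower in NOD Tconv, at -0.75 (adjusted p = 0.0141). Rabac1, which binds prenylated Rabs, was higher in NOD Tconv, at 0.72 (adjusted p = 0.00506), as was Dennd5a, at 0.53 (adjusted p = 0.0427). Dennd2d and Vps39, a subunit of the tether that works with Rab7 at lysosomes, were higher in NOD Treg, at 0.66 (adjusted p = 0.0461) and 0.35 (adjusted p = 0.043).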
